A study of Rattus norvegicus with 3 samples.

Results

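The antimicrobial genes followed here in rat thymus had transcripts concentrated in the cells that the authors labelled Myeloid: RatNP-3b, Pglyrp1, S100a8, S100a9 and Lcn2. They are 5 of the 34034 genes in the count tables. They had been chosen from measured values of these same libraries, so their high level under that label is given as a description and supports nothing. The samples were 2 droplet single-cell RNA libraries of thymus from Lewis rats (an inbred strain) aged 8 weeks, with no treatment named in the labels. For the stromal library, Liberase TH with DNase I released the cells, and those lacking CD45 were sorted; CD45 is a surface protein of cells that come from blood precursors. For the thymocyte library, collagenase D took the place of Liberase TH. A spatial section of the same series was not used here. Each group had 1 library, the number of animals in it was not stated, and no test between groups was possible. Every interval below is at 95% and covers counting error only.

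These genes code for proteins with which neutrophils kill or starve microbes. A neutrophil fills its granules in sequence while it matures in the bone marrow: azurophil granules receive myeloperoxidase, serine proteases and defensins, specific granules receive proteins such as cathelicidin and lipocalin 2 later, and gelatinase granules receive matrix metalloproteinases later still. RatNP-3b is an alpha-defensin, a short cationic peptide that damages bacterial membranes. S100a8 and S100a9 code for the subunits of calprotectin, a cytosolic protein that binds calcium and withholds zinc and manganese from microbes. Pglyrp1 binds the peptidoglycan of bacterial cell walls. Lcn2, lipocalin 2, binds the iron carriers of bacteria and is also made by epithelial cells.

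The stromal library had 13226 annotated cells with a median of 9087.5 UMIs (unique molecular identifiers, each counting 1 captured RNA molecule). Of these, 505 cells (3.82%) carried the label Myeloid, with a median of 9510 UMIs. The thymocyte library had 8546 annotated cells with a median of 3994 UMIs, and 170 of them (1.99%) carried a label that joins B and myeloid cells. The 2 libraries shared 38 cell barcodes, 1 of them in a Myeloid cell. No doublet caller was run.

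RefSeq's promoter table for the GRCr8 build held 4 of the 5 genes, all but S100a8. The windows run from 250 bases before the annotated start to 50 after it. They are shown because the levels of RatNP-3b and of Lcn2 and Pglyrp1 were opposed among the Myeloid cells richest in the 5 genes. Capitals mark matches, on either strand, to a motif of the CCAAT/enhancer-binding proteins (TTGCNNAA) or of PU.1, both factors of myeloid cells. For PU.1 the letters GAGGAA were searched, which read TTCCTC on the other strand. The motifs do not overlap in these windows and were chosen with the expression values known.
RatNP-3b (chr16:77248928-77249227, minus strand): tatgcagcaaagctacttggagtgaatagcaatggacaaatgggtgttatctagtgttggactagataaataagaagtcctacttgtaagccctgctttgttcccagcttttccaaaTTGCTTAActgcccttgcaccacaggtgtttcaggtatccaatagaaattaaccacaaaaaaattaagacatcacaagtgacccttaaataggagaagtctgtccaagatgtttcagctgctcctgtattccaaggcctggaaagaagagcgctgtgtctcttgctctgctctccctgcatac
S100a9 (chr2:178490573-178490872, minus strand): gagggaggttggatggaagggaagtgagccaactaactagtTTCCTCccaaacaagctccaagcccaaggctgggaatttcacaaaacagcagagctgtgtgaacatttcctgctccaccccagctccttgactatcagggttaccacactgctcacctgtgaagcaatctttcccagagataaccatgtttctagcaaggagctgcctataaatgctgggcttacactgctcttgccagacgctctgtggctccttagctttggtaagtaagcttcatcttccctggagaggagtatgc
Pglyrp1 (chr1:87659613-87659912, plus strand): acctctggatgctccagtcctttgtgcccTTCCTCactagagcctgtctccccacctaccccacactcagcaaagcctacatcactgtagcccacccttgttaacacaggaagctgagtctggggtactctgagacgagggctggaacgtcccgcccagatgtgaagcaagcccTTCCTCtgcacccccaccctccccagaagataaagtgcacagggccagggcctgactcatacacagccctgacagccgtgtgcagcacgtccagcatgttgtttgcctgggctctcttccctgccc
Lcn2 (chr3:36081731-36082030, minus strand): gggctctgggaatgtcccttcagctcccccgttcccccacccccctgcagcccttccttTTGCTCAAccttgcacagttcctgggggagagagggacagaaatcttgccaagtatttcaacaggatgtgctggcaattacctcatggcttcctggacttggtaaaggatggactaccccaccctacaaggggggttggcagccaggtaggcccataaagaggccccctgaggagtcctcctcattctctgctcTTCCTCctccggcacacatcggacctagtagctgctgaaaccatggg

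RatNP-3b held 1 match to TTGCNNAA, at position -133 from its annotated start, and Lcn2 held 1 at -191. The PU.1 letters matched Pglyrp1 at -221 and -76, S100a9 at -209 and Lcn2 at 3. RatNP-3b had no match to the PU.1 letters, and S100a9 and Pglyrp1 had none to TTGCNNAA. Of 33469 rat promoters of this length, 10.6% held the first motif and 27.6% the PU.1 letters. A match is a description of letters and not of binding, and a missing match says only that those letters are not in the window. In RefSeq's gene order, S100a8 and S100a9 lie on chromosome 2 with 0 annotated genes between them. RatNP-3b lies on chromosome 16 in a row of alpha-defensin genes, next to Defa11, Defa10 and Np4. These defensins are close paralogs, so reads could have been divided among them in counting, and the level of RatNP-3b apart from its neighbours is uncertain.

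Under the Myeloid label the 5 genes together were at 160039 CPM (counts per 1000000 UMIs of the label). S100a9 was at 71122 CPM (interval 70909 to 71335). Over the 505 cells it ranged from 0, in 88 cells, through a median of 2.17% of a cell's UMIs to 31.1%. Its partner S100a8 was at 49371 CPM, with 0 in 95 cells, a median of 2.61% and a highest value of 20.5%. Both calprotectin genes thus ran from no UMI to a large part of a cell's RNA within a single label.

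The defensin RatNP-3b was at 37186 CPM (37033 to 37341). It was at 0 in 123 cells, had a median of 0.983% of a cell's UMIs and reached 24.7%. Its 32 richest cells held at least 50% of all its UMIs in the annotated stromal library, against 65 cells for S100a8 and 55 for S100a9. The other members were far less abundant. Lcn2 was at 1764 CPM (1731 to 1798), with no UMI in 312 cells and a highest value of 2.25%. Pglyrp1 was at 595 CPM (576 to 615), with no UMI in 295 cells and a highest value of 0.809%.

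For comparison, the same shares were read in cells labelled TMC2, a mesenchymal label of 3080 cells with a median of 8269.5 UMIs. There 14.8% of cells had a RatNP-3b UMI, 19.7% an S100a8 UMI and 29.8% an S100a9 UMI, against 75.6%, 81.2% and 82.6% of Myeloid cells. After every cell was thinned to 1000 UMIs, those TMC2 shares were 2.34%, 3.57% and 4.09%, and the Myeloid shares were 65.2%, 72.0% and 72.6%. Lcn2 and Pglyrp1 had UMIs in 38.2% and 41.6% of Myeloid cells, and in 2.21% and 1.23% of TMC2 cells.

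Summed members separated the Myeloid label into rich and poor cells. A cell was placed in the high range when the 5 genes made up at least 1% of its UMIs. This held for 348 of 505 cells, or 68.9% (64.7 to 72.9, Clopper-Pearson). The range is a stretch of a continuum and not a cell type: 32 cells lay within a factor of 2 of the limit. The 3 cells just inside it had 1.00%, 1.19% and 1.24%, and the 3 just outside had 0.997%, 0.984% and 0.944%. In the high range the members' share had a median of 22.3% and reached 51.3%. The high-range cells had a median of 8511.5 UMIs and 2240 genes, and the other 157 cells had 12816 UMIs and 3425 genes.

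**Figure D1:**
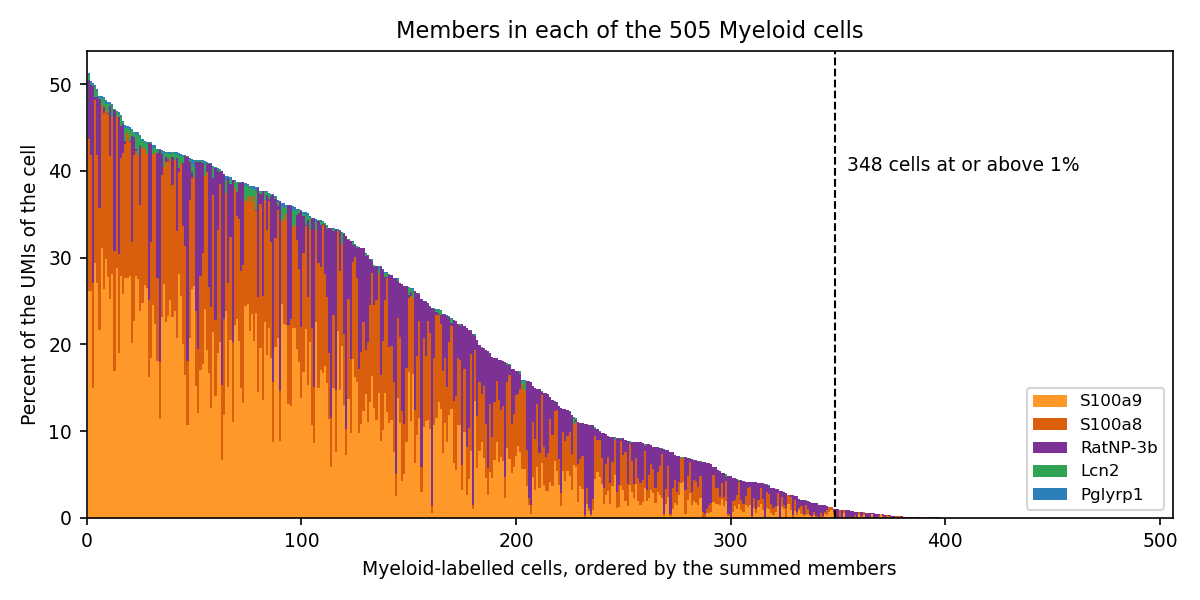
Percent of each cell's UMIs taken by each of the 5 members (stacked bars) in the 505 cells labelled Myeloid, ordered by their sum; the dashed line is the limit of 1%. The sum falls from 51.3% to 0, and 348 cells lie at or above the limit; RatNP-3b makes up very different parts of cells with the same sum.

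Markers of the label were then read in both ranges, on UMIs per 1000000 with the members left out of the totals. Some listed neutrophil genes were higher where the members were high, and the azurophil proteases were lower there. Of 40 listed neutrophil genes, 31 had at least 20 UMIs in the Myeloid cells. In the high range 22 were at least 4-fold higher and 4 at least 4-fold lower. Of all 11287 genes tested in this way, 6.95% were at least 4-fold higher and 3.9% at least 4-fold lower. The list's median log2 ratio was 4.12, with genes absent from a range entered at 3 UMIs, and that of all genes tested was 0.16. The comparison takes both ranges from 1 library, and the high range was cut on genes that neutrophils share, so the counts carry no test.

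Most of the tested neutrophil genes outside the azurophil proteases were at least 4-fold higher in the high range. Camp, the cathelicidin, had 73659 UMIs in the high range and 37 in the rest (1947-fold, interval 1410 to 2687). Ngp, another specific-granule protein, had 17713 UMIs in 119 cells of the high range and 2 UMIs in the rest. Olfm4, a specific-granule glycoprotein, was 61.1-fold higher (51.8 to 72.1). Mmp8, neutrophil collagenase, had 434 UMIs in 21 cells and 0 in the rest, which is at least 141-fold higher. Retnlg had 297 UMIs against 0 (at least 96.8-fold) and the chemokine receptor Cxcr2 had 124 against 0 (at least 40.4-fold). Cd177, a neutrophil surface protein, was 168-fold higher (69.7 to 404), and the integrin chains Itgam and Itgb2 were 32.5-fold and 52.3-fold higher. The defensins Np4 and Defa5 were 21.3-fold and 39.1-fold higher. Defa7, Mmp9, Chi3l1, Padi4, Cebpe, Il1r2, Mmp25, Mcemp1, Slpi, Fpr2 and G0s2 were higher too, from 4.21-fold for Il1r2 to 104-fold for Fpr2. Among these, G0s2 and Il1r2 were lower under Myeloid than under the other stromal labels together (46.5 against 156 CPM and 8.78 against 39.9). Hp (1.52-fold), Csf3r (2.53-fold), Trem1 (3.62-fold) and Il1b (0.948-fold) did not reach 4-fold in either direction.

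The proteases of azurophil granules were lower in the high range. Ctsg, cathepsin G, was at 1338 UMIs per 1000000 in the high range and 11522 in the rest (8.61-fold lower). Elane, neutrophil elastase, was 7.23-fold lower and Prtn3, proteinase 3, was 7.36-fold lower. Fcnb, a ficolin, was 10.7-fold lower. Mpo, myeloperoxidase, was 3.60-fold lower and did not reach 4-fold. Of the 157 cells outside the high range, 143 (91.1%) had at least 10 UMIs of Mpo, Elane, Prtn3 and Ctsg together, against 72 (20.7%) inside it. The other 14 cells of the 157 were under that limit of 10, and 4 cells had no UMI of these genes. Most cells poor in the members thus had azurophil transcripts. The same 157 cells had 2 UMIs of Ngp and 0 of Mmp8. They also held Irf8 (274 UMIs in 80 cells) and Csf1r (93 UMIs in 51 cells). Which cell types they were was not tested.

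The C1q genes of macrophages were missing from the label. C1qa, C1qb and C1qc each had 0 UMIs in all 505 cells, while under the thymocyte library's B and myeloid label they had 6316, 4647 and 4598. Adgre1 had 1 UMI in each range. Of 22 listed monocyte and macrophage genes 11 could be tested: Cybb, a subunit of the oxidase that neutrophils also use, was 7.66-fold higher and Ly6c 4.89-fold higher in the high range. Csf1r (10 against 93 UMIs), Ccr2 (13 against 139) and Ctss (5 against 53) were 9.51-fold, 10.9-fold and 10.8-fold lower. Of 15 listed dendritic genes 7 were tested: Itgax was at least 11.7-fold higher, on 36 UMIs, and Irf8 was 14.7-fold lower. Among the mast cell, basophil and eosinophil genes 3 could be tested, and Kit was 14.3-fold lower (5 against 70 UMIs). In the erythroid list 2 were tested, with Hba-a2 lower. In the T-lineage list 3 were tested, with 1 lower. The 1 B-lineage, 5 epithelial and 4 endothelial genes tested did not reach 4-fold. Of 5 mesenchymal genes Pdgfra (5.06-fold) and Col1a1 (4.30-fold) were higher in the high range, and Dcn had UMIs in 225 of its 348 cells. Their part in the differences was not tested.

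The sort was for cells without CD45. Ptprc, which codes for CD45, nevertheless had a UMI in 79.3% of high-range cells and 69.4% of the other Myeloid cells, and in 0.925% of the 8216 cells labelled TMC1 to TMC4 or capFb. The share of cells under the label was set by that sort and is not the share of neutrophils in the thymus.

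Correlations among the members depended on which Myeloid cells were read. Over all 505 cells, on log2(1 + UMIs per 10000), RatNP-3b had a Pearson r of 0.63 with S100a8, 0.59 with S100a9, 0.10 with Pglyrp1 and -0.03 with Lcn2. Over the 348 high-range cells S100a8 and S100a9 had an r of 0.94 and Pglyrp1 and Lcn2 of 0.85, while RatNP-3b had -0.59 with Lcn2, -0.43 with Pglyrp1, -0.16 with S100a8 and -0.19 with S100a9. The high range was cut on the members' own sum, so a cell poor in RatNP-3b entered it only through the other members, which lowers these values. In the 262 Myeloid cells with at least 10 UMIs of Camp, which is no member, RatNP-3b had -0.64 with Lcn2, -0.48 with Pglyrp1, -0.22 with S100a8 and -0.26 with S100a9. Camp itself was correlated with the members' sum, so that choice was not independent of them. The points are cells of 1 library, so these values are descriptive. With a cell's UMI total, Pglyrp1 had an r of 0.49 and RatNP-3b of -0.02 in the high range.

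The 348 cells were then ordered by RatNP-3b, with ranges chosen after the values were seen. It made up under 0.1% of UMIs in 51 cells, 0.1 to 1% in 45, 1 to 10% in 193 and at least 10% in 59. From the poorest to the richest range, Lcn2 was at 14170, 5011, 2012 and 1095 UMIs per 1000000 UMIs of other genes. That order is the reverse of RatNP-3b's at every step. Pglyrp1 was at 3970, 1359, 803 and 881 and was highest in the poorest range. S100a8 was at 188702, 95069, 95274 and 121638, and S100a9 at 306167, 135590, 127890 and 172187. Both were highest in the poorest range, which the limit on the members' sum fixes in part, since cells with little RatNP-3b passed it through the other members. The cells of the 2 outer ranges had medians of 11696 and 13217 UMIs, above those of the middle ranges (5854 and 6569).

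**Figure D2:**
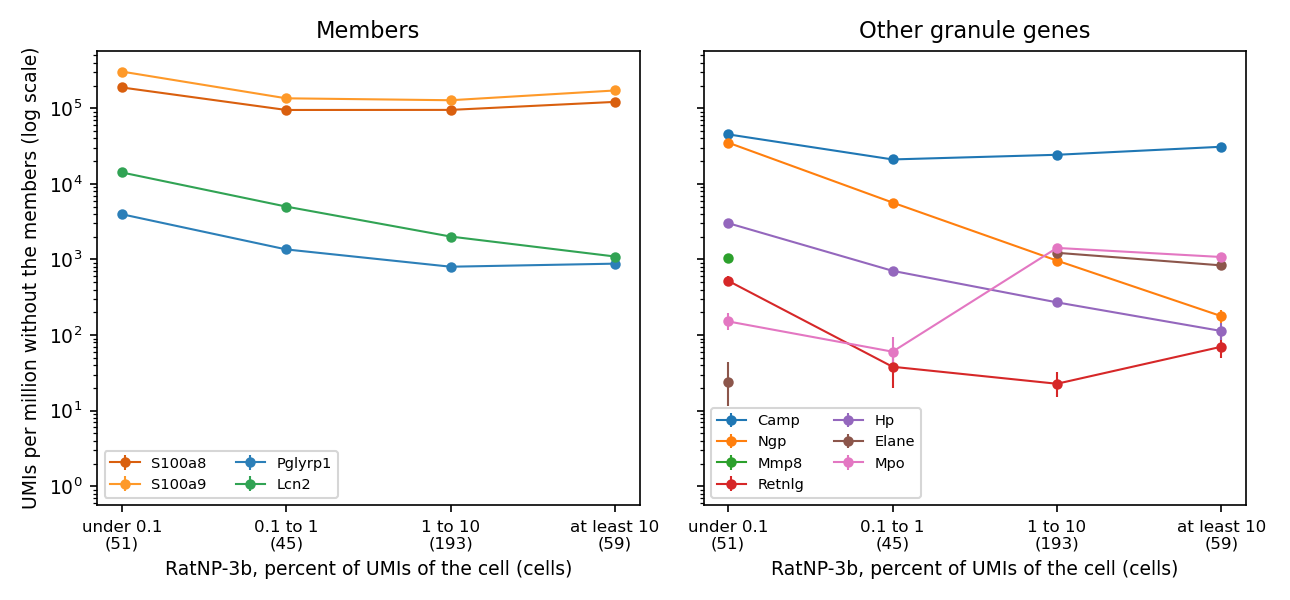
UMIs per 1000000 UMIs of other genes (log scale; bars, 95% Poisson intervals) in high-range Myeloid cells by their RatNP-3b share, with the number of cells in brackets; ranges with 0 UMIs have no point. Lcn2, Ngp and Hp fall from left to right (Lcn2 from 14170 to 1095), Elane and Mpo are higher in the right-hand ranges, and Mmp8 appears in the leftmost range alone.

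RatNP-3b-poor and RatNP-3b-rich cells (the outer ranges) were compared directly. Lcn2 was 12.9-fold higher in the poor cells (11.9 to 14.1), Pglyrp1 4.51-fold (4.07 to 4.98), S100a9 1.78-fold and S100a8 1.55-fold, under the same limit on their sum. Of the neutrophil list 29 genes were tested: 13 were at least 4-fold higher in the poor cells and 7 at least 4-fold lower. Of all 5662 genes tested, 6.32% were higher and 2% lower by that measure. The list's median log2 ratio was 1.48, against 0.31 for all genes tested.

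Some granule and surface genes were higher in the RatNP-3b-poor cells and others did not reach 4-fold. Ngp was 197-fold higher (162 to 241), with UMIs in 47 of 51 poor and 12 of 59 rich cells. Hp, haptoglobin, was 26.7-fold higher, Cd177 7.30-fold, Padi4 6.21-fold and Cxcr2 5.62-fold. Mmp8 had 434 UMIs in 21 poor cells and 0 in the rich cells (at least 194-fold), and Mmp9, gelatinase B, had 89 in 8 cells and 0 (at least 39.7-fold). Retnlg was 7.45-fold higher, G0s2 10.5-fold, Mmp25 9.82-fold and Fpr2 8.23-fold, and Slpi had 74 UMIs against 0 (at least 33.0-fold). Fcnb was 84.4-fold higher, on 189 UMIs in 3 poor cells. Among surface genes, Itgam (2.79-fold), Itgb2 (2.03-fold), Csf3r (1.12-fold) and Trem1 (3.71-fold) did not reach 4-fold. Camp and Olfm4 did not either, at 1.46-fold and 1.83-fold. Of the other S100 genes 4 were tested, and 3 were at least 4-fold higher in the poor cells. S100a4 was 14.7-fold higher, on 33 UMIs in 3 poor cells against 1 UMI. S100a6 was 10.5-fold higher, with UMIs in 17 poor and 16 rich cells, and S100a10 8.19-fold, with UMIs in 11 and 13. Both had higher levels under the other stromal labels together than under Myeloid (1309 against 233 CPM and 567 against 306). S100a11 did not reach 4-fold (1.81-fold).

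The azurophil genes were higher in the RatNP-3b-rich than in the RatNP-3b-poor cells. Elane was 34.7-fold higher in the RatNP-3b-rich cells (18.6 to 65.0), Ctsg 8.74-fold and Mpo 7.11-fold. Elane and Ctsg each had UMIs in 20 of the 59 rich cells, and at least 10 UMIs in 9. Their levels were higher still in the 1 to 10% range, where Elane was at 1226 and Ctsg at 2129 UMIs per 1000000, against 836 and 1178 in the richest. In the poor cells all 63 Mpo UMIs were in 1 cell. Prtn3 had 219 UMIs in the rich cells and 2 in the poor. The neighbouring defensins Np4 (207-fold), Defa5 (844-fold) and Defa7 (78 UMIs against 0, at least 19.4-fold) were higher in the rich cells as well, with the doubt about paralogs noted above. Mki67, a gene of dividing cells, had a ratio of 1.07 of poor to rich cells (0.888 to 1.28). Top2a, another, was 3.12-fold higher in the poor cells, with UMIs in 17 of 51 and 29 of 59 cells.

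Transcripts of other cell types moved with this split. Dcn, a matrix proteoglycan of fibroblasts, was 10.3-fold higher in the RatNP-3b-poor cells, Col1a1 10.7-fold and Col1a2 9.13-fold, and 3 of 4 tested mesenchymal genes passed 4-fold. The 3 tested epithelial genes did too. Epcam had 22 UMIs in 1 poor cell and 1 in the rich cells, Krt5 was 8.84-fold higher and Krt14 9.18-fold. Cd68, Ly6c and Apoe of the macrophage list, and Cd74, RT1-Da and Tcf4 of the dendritic list, were 4.14-fold to 6.16-fold higher. Ms4a2, Cd3e and Cd3g were lower in the poor cells. The part of such RNA in the split was not tested; Dcn had UMIs in 33 poor and 33 rich cells.

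The genes most like the summed members over the 505 Myeloid cells, of 11274 compared, began with Camp (r = 0.85). Plbd1, a phospholipase of neutrophil granules, followed at 0.76, then Tf, transferrin (0.69), and Anxa1, annexin A1 (0.65). Syne1 (0.64), Ceacam4 (0.63), Gda (0.63), Cybb (0.63), Np4 (0.62) and Defa5 (0.61) completed the first 10. The most opposed gene was Ctsg (-0.76), followed by Npm1 (-0.75), Rpl14 (-0.73), Mif (-0.73) and C1qbp (-0.72). The members themselves weigh on these values through the cells' totals.

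All 5 members were higher under Myeloid than under each of the other 23 stromal labels of at least 20 cells. A lead of at least 3-fold on at least 20 UMIs was held by 0.737% of the 17239 genes tested, and the members had been chosen for it. The second label was mTEC2, an epithelial label, for RatNP-3b (194 CPM), MEC for Pglyrp1 (20.9 CPM), mTEC-prol for S100a8 (538 CPM) and for S100a9 (514 CPM), and mimetic(muscle) for Lcn2 (263 CPM). Neighbours in these orders mostly could not be told apart, since their intervals overlapped in 18 to 21 of 23 pairs. The lowest labels were mimetic(tuft) for RatNP-3b (7.12 CPM), aaTEC2 for S100a8 (5.49 CPM) and S100a9 (22.0 CPM) and capFb for Lcn2 (1.79 CPM), and Pglyrp1 had no UMI under 5 labels.

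**Figure D3:**
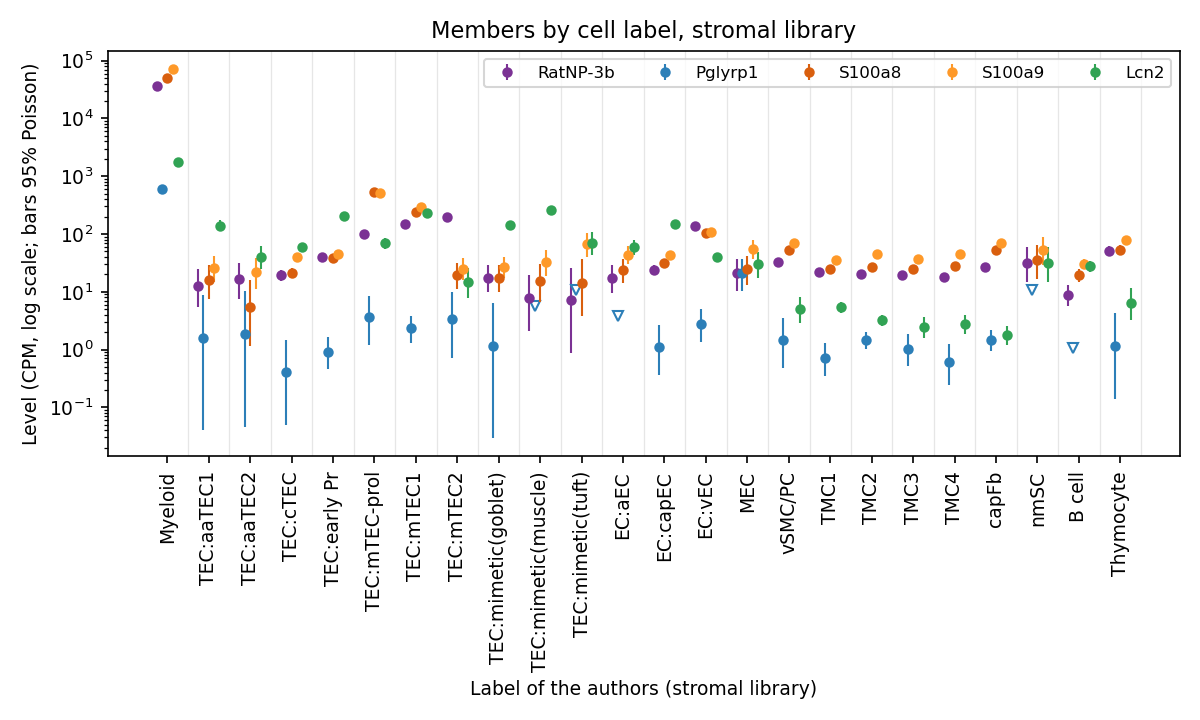
Level of each member (CPM, log scale; bars, 95% Poisson intervals) under the 24 labels of at least 20 cells in the stromal library; open triangles mark labels with 0 UMIs, drawn at the level that 3 UMIs would give. Every member is highest under Myeloid, from 595 CPM for Pglyrp1 to 71122 for S100a9, and Lcn2 lies above the other members under most epithelial labels.

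Part of the second places rested on single cells. Outside Myeloid, 8 annotated stromal cells were in the high range: 2 labelled mTEC1, 2 capFb, and 1 each vEC, early Pr, mTEC-prol and vSMC/PC. All but a capFb cell had more UMIs than their label's median, for example 29303 against 16804.5 in the mTEC-prol cell. The mTEC1 cell with the most held 756 RatNP-3b, 913 S100a8, 1224 S100a9 and 15 Epcam UMIs. Without these 8 cells S100a8 under mTEC-prol fell from 538 to 23.9 CPM and S100a9 from 514 to 29.9. Under mTEC1 RatNP-3b went from 150 to 17.8 CPM and S100a9 from 299 to 36.0, and under vEC RatNP-3b went from 135 to 16.1. Under mTEC2 no cell was in the high range, and RatNP-3b stayed at 194 CPM. Whether these barcodes held more than 1 cell was not tested.

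Over all labels but Myeloid, the level relative to that inside it was 0.000951 for RatNP-3b, 0.00102 for S100a8, 0.000932 for S100a9 and 0.00218 for Pglyrp1. For Lcn2 it was 0.0270. The 127 genes that led under Myeloid had a median of 0.00593, and the 19 of the neutrophil list among them 0.00126. Of the UMIs counted in annotated stromal cells, Myeloid held 98.1% for RatNP-3b, 97.9% for S100a8, 98.1% for S100a9, 95.7% for Pglyrp1 and 64.0% for Lcn2.

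The proportions of the 5 genes among their summed UMIs told labels apart. In the Myeloid label S100a9 made up 44.4%, S100a8 30.8%, RatNP-3b 23.2%, Lcn2 1.10% and Pglyrp1 0.372%. In the cells labelled TMC1 to TMC4 or capFb, with the high-range cells left out, the proportions on 6990 UMIs were 45.2%, 28.7%, 21.3%, 3.53% and 1.27%. The order of the 3 abundant genes was the same in both, while Lcn2 and Pglyrp1 took larger parts than in Myeloid. In cells labelled Thymocyte in this library the proportions of S100a9, S100a8 and RatNP-3b were 41.3%, 28.0% and 26.8%. The source of these UMIs was not tested.

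**Figure D4:**
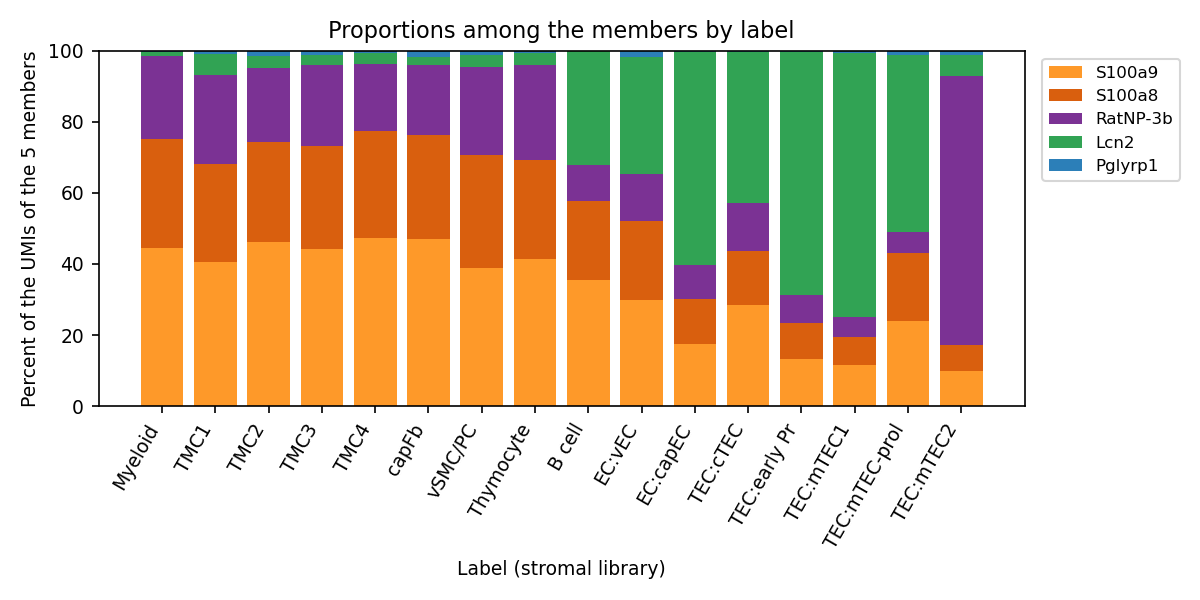
Percent of the summed member UMIs that each member made up, by stromal label, without the 8 high-range cells outside Myeloid. Mesenchymal labels resemble Myeloid (S100a9 at 44.4% there and 45.2% in the pooled mesenchymal labels), Lcn2 makes up 68.3% under early Pr, 74.3% under mTEC1 and 59.8% under capEC, and mTEC2 is mostly RatNP-3b at 75.6%.

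Lcn2 was also found under epithelial and capillary labels. Under early Pr, an epithelial label of 1018 cells, it was at 202 CPM (194 to 210), with UMIs in 656 cells (64.4%) against 2.21% of TMC2 cells. Thinned to 1000 UMIs, the shares were 17.2% and 0.195%. It was at 230 CPM under mTEC1, 263 under mimetic(muscle) (35 cells), 143 under mimetic(goblet), 140 under aaTEC1 and 151 under capEC. Under cTEC it was at 60.2 CPM and under mTEC2 at 14.9, so that the epithelial labels differed among themselves. Under TMC1 to TMC4 and capFb it lay between 1.79 and 5.41 CPM. Without the high-range cells outside Myeloid, it made up 68.3% of member UMIs under early Pr, 74.3% under mTEC1 and 59.8% under capEC. With those cells kept, Lcn2 was 2448 of 3959 member UMIs under early Pr and 1479 of 5932 under mTEC1. Under mTEC1, S100a8 (241 CPM) and S100a9 (299 CPM) were then above it.

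After Myeloid, RatNP-3b was highest under mTEC2, a label of 61 cells. It was at 194 CPM (166 to 226), on 170 UMIs in 22 cells, and 134 CPM without its richest cell, which held 54. Those 22 cells were 36.1% of the label, against 14.8% of TMC2 cells. These shares were not thinned, so differences in depth between the labels remain in them. RatNP-3b made up 75.6% of member UMIs under mTEC2. In the 9 cells with at least 3 RatNP-3b UMIs, S100a8 was at 0 in all 9 and S100a9 in 7. The same label held UMIs of defensins nearly missing from Myeloid: 78 of Defa6, 23 of Defal1, 12 of Defa24 and 8 of Defa9, against 2, 1, 2 and 1 among 488905 defensin UMIs of Myeloid. It also held genes abundant in Myeloid, with 43 UMIs of Np4, 25 of Defa5, 23 of Defa11 and 13 of Camp. RatNP-3b made up 44.3% of its defensin UMIs, against 45.9% in Myeloid. The richest cell had 54 RatNP-3b, 12 Defa6, 5 Defa24, 4 Defal1 and 1 Aire UMIs. The next had 26 RatNP-3b, 6 Defa9 and 0 Aire UMIs. The third had 23 RatNP-3b, 27 Np4, 18 Defa6, 10 Defa11 and 0 Aire UMIs. A cell with 13 RatNP-3b UMIs had 1 of Aire and no other defensin. Aire codes for the regulator that lets medullary epithelium transcribe genes of other tissues. Its part in the RatNP-3b UMIs under mTEC2 was not tested, nor was the source of those UMIs.

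Pglyrp1 stood out under MEC, a label of 48 cells. Its 11 UMIs lay in 7 cells and gave 20.9 CPM (10.4 to 37.4), against 0.401 to 3.66 CPM under the other labels where it was found. It made up 13.8% of member UMIs under MEC, where RatNP-3b had 11 UMIs as well.

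Under the B and myeloid label of the thymocyte library, calprotectin transcripts were found without RatNP-3b. S100a9 was at 4695 CPM, S100a8 at 2718, Pglyrp1 at 78.6 and Lcn2 at 20.5, and RatNP-3b had 0 UMIs in 170 cells, a count that allows up to 1.26 CPM. Of the label's member UMIs 98.8% lay in 6 of its cells, in which the members made up 4.29% to 44.2% of UMIs. S100a9 had 2817, 1578, 2567, 1475, 1176 and 1476 UMIs in them and S100a8 had 1536, 1105, 1589, 704, 700 and 800. In comparison with the RatNP-3b-poor cells of the stromal library, all 6 also had Mmp8 (22 to 106 UMIs) and Pglyrp1 (12 to 60 UMIs), but Ngp had at most 1 UMI in any of them. None had Np4, Defa5, Mpo, Prtn3 or Ctsg. Retnlg had 0 UMIs in 1 of them and 20 to 112 in the others. The sixth cell, with 53997 UMIs, also held 321 C1qa and 43 Csf1r UMIs. A seventh cell lay under the limit at 0.592% of its UMIs. The other labels of at least 20 cells had summed levels of at most 6.95 CPM.

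Nearly all RatNP-3b UMIs of the thymocyte library lay in 1 cell, together with calprotectin UMIs. The only cell of cluster DP1 without a projected label held 2534 of the library's 2537 annotated RatNP-3b UMIs. It had 14397 UMIs in all, of which the members made up 19.2%, with 99 UMIs of S100a8, 128 of S100a9 and 0 of Lcn2 and Pglyrp1. It also had 1589 Defa5, 1219 Np4, 86 Ctsg, 79 Elane and 56 Mpo UMIs and none of Mmp8, Cd3d, Cd3e, Cd4, Cd8a or Rag1. Its name as a thymocyte cluster therefore went against its transcripts. As in the RatNP-3b-rich cells of the stromal library, its defensin came with azurophil genes and without Mmp8. This is a description of 1 cell.

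**Figure D5:**
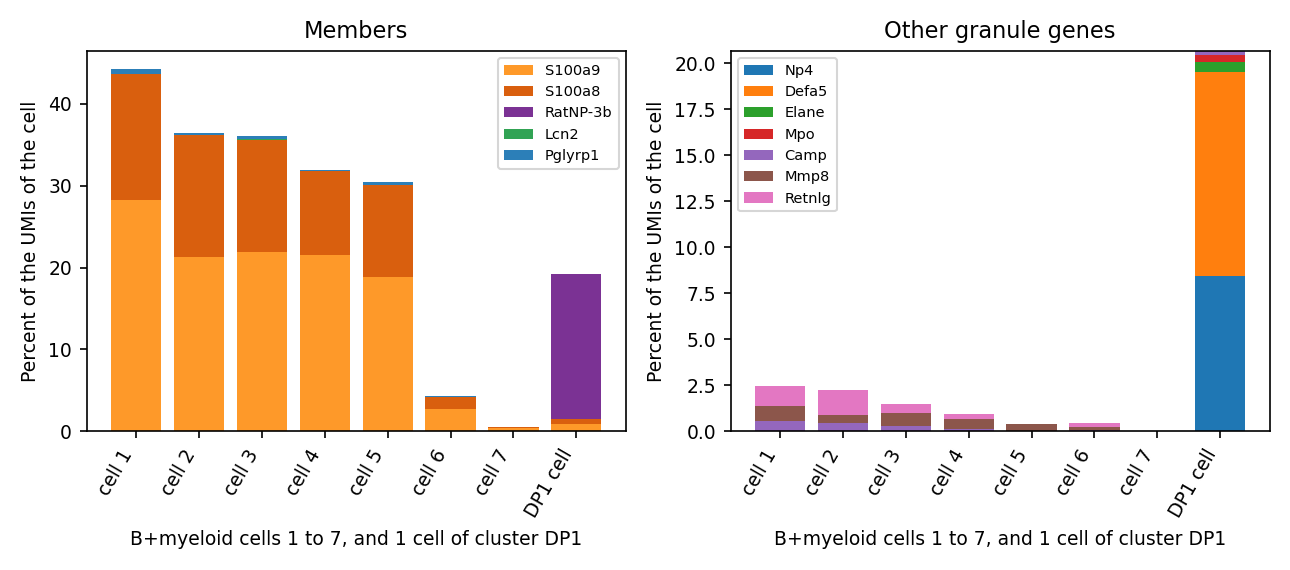
Percent of the cell's UMIs taken by the members (left) and by 7 other granule genes (right) in the 7 B and myeloid cells with the most member UMIs and in the 1 cell of cluster DP1 of the thymocyte library (stacked bars; the vertical scales differ). RatNP-3b, Np4 and Defa5 appear in the DP1 cell alone; Mmp8 and Retnlg appear in cells 1 to 6, except Retnlg in cell 5.

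Of the listed receptors and partners of the members, Trem1, a receptor that binds Pglyrp1, had 559 UMIs in the Myeloid cells (92.6 CPM) and 7 under all other stromal labels. Of the 12 listed genes 5 were tested between the ranges. Cd69 was 13.3-fold lower in the high range, with 1 UMI against 39. Tlr4, a receptor for calprotectin, had 86 UMIs against 50 (1.68-fold), Tlr2 had 64 against 19 (3.29-fold) and Trem1 had 440 against 119 (3.62-fold). None of the 3 reached 4-fold. Ager had 14 and 8 UMIs. The other peptidoglycan recognition genes Pglyrp2 and Pglyrp3 had 0 UMIs in both ranges and Pglyrp4 had 13 against 0. Of the other S100 genes 14 were in the tables and 8 were tested: S100a4 was lower in the high range (55 against 451 UMIs), and S100a11 (2.95-fold) and S100a10 were among those that did not reach 4-fold. None of the 8 was at least 4-fold higher in the high range.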

How the data were processed

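The deposited matrices hold UMI counts, whole and not normalized. The submitters' processing notes name Cell Ranger 8.0.0, Seurat 5.3.0 and the build mRatBN7.2. The deposited annotation gives each cell's cluster, projected label, UMI and gene counts, and the percent of mitochondrial UMIs, computed by the authors. A cell's label here is its projected label or, failing that, its cluster. The RefSeq table of GRCr8 matched 29433 of 34034 gene names and gave names and gene order.

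UMIs were summed per label of at least 20 cells as CPM, with exact Poisson intervals; shares have Clopper-Pearson intervals and ratios log-normal ones. A gene with fewer than 3 UMIs in a range entered ratios at 3. Thinning drew 1000 UMIs per cell with seed 7, and cells below that depth (83 stromal, 51 in the thymocyte library) were not thinned or used. Droplet reads carry molecular identifiers, yet intervals cover counting error only.

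The members, gene lists and limits were chosen with earlier results of these data known. The text names the 5 members, the list genes past 4-fold with at most 4 others per list, and the 10 genes most correlated with the members where r was at least 0.3. Calls needed at least 20 UMIs. Genes outside this rule were chosen after their values were seen. They were Mpo, Camp and Olfm4 between the RatNP-3b ranges, Mki67, Top2a, Ptprc, Npm1, Rpl14, Mif and C1qbp. The defensins, Camp and Aire under mTEC2 were chosen in the same way. So were the ranges of RatNP-3b, the choice of cells by Camp and the removal of high-range cells outside Myeloid. For the high range over the rest of Myeloid, calls at 4-fold were run on simulated counts of 10986 genes. All 200 genes raised 8-fold were recovered. Each of these had at least 200 UMIs, and the counts had no spread between cells, so full recovery was to be foreseen. It says nothing of genes near 20 UMIs or held by few cells. Alternatives were cells of at least 1000 UMIs, thinning, other limits and folds, other totals, single cells or members left out, and splits of barcodes without annotation. Software was pandas 2.3.3, SciPy 1.17.1, NumPy 2.4.6 and, for plots, matplotlib 3.10.9, under Python 3.11.15.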

Additional observations from a re-analysis of the deposited data

Results flagged for a closer look

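Barcodes of the stromal library that the authors left without annotation carried member UMIs, and are listed because no comparison above used them. Over these 2934 barcodes, with a median of 1219.5 UMIs, S100a9 was at 324 CPM, S100a8 at 228, RatNP-3b at 174, Lcn2 at 35.6 and Pglyrp1 at 2.65. Without the top barcode S100a9 was at 193, S100a8 at 135, RatNP-3b at 165, Lcn2 at 33.8 and Pglyrp1 at 1.62. The pooled cells labelled TMC1 to TMC4 or capFb had 46.9, 31.8, 21.3, 3.15 and 1.15 CPM. Of 6626 member UMIs, 62.9% lay in 12 barcodes at or above 1% of their UMIs. Of these 12, 9 had at most 500 genes, and 1 had 35256 UMIs, among them 48 of Epcam. All 12 held RatNP-3b, and Mmp8 and Elane were at 0 in them. Other azurophil genes were not all absent: 1 barcode held 10 Mpo, 3 Ctsg and 2 Prtn3 UMIs. Another held 6 Mpo UMIs, and the barcode with 35256 UMIs held 1 of Ctsg. Those 9 were among 2039 barcodes of at most 500 genes. The 28 thymocyte-library barcodes without annotation had 0 member UMIs, on a median of 764.5 UMIs each.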

How the results depend on the processing

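No paired analysis was possible because neither library has a replicate, and none was left out for that reason. Of 157 recomputed values other than correlations, 66 stayed within the main interval (counts: within 1.5 times) and 91 did not; 31 moved by over 1.5 times. Values of single members under Myeloid stayed between 0.899 and 1.21 times those reported.

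The summed level under Myeloid, 160039 CPM, was 157523 after thinning, 157317 as the mean of the cells' CPM, 194381 on totals without mitochondrial, ribosomal and haemoglobin genes and 158664 without the top cell. The share of Myeloid cells with a member UMI, 93.5%, was 79.3% after thinning. The share in the high range was 73.9% at a limit of 0.3%, 64.2% at 3% and 64.0% with RatNP-3b left out of the sum. The summed level outside Myeloid per 1000 of that inside, 1.26, was 1.14 after thinning and 0.847 without the 8 high-range cells outside. At 8-fold, 2 listed neutrophil genes were lower in the high range, since fewer pass a larger fold. The summed level in barcodes without annotation, 765 CPM, was 1226 under 5% mitochondrial UMIs, 888 at most 500 genes and 527 without the top barcode; the cause was not tested.

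RatNP-3b under mTEC2 was 326 CPM as the mean of the cells' CPM. With RatNP-3b ranges of under 1% and at least 5%, all genes at least 4-fold lower numbered 74 in place of 113. Over all Myeloid cells in place of the high range, r of RatNP-3b turned to 0.63 with S100a8, 0.59 with S100a9 and 0.10 with Pglyrp1, and was -0.03 with Lcn2; all 4 stayed negative in cells chosen by Camp, a choice made after seeing the data. Low levels rest on few UMIs per label, and doublets were not removed.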
